A study of Caenorhabditis elegans with 2 samples.

Results

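The microRNA genes of Caenorhabditis elegans other than mir-51 to mir-56 were examined for occupancy by CEH-83, the product of a homeobox gene. All genes of biotype miRNA in the Ensembl annotation of assembly WBcel235 (ce11) were taken, and the 6 genes mir-51 to mir-56 were left out, which gave 255 of 261 microRNA genes among 46890 annotated genes. The material was whole embryos of mixed stage and mixed sex from strain OP727, genotype unc-119(tm4063) with the integrated transgene wgIs727, which carries ceh-83::TY1::EGFP::3xFLAG and a rescuing unc-119(+), prepared by egg bleaching and labelled with an age of 1 hour. The tag was at the C-terminus of CEH-83. The experiment was chromatin immunoprecipitation and sequencing (ChIP-seq) of 1 group of 2 biological replicates, with an antibody against GFP per the sample description, although the antibody field reads ceh-83. No animals without the tag were analysed, so "bound" below means only that the summit of a region in the reproducible list lay in the gene or within 200 bp of it.

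MicroRNA genes are transcribed as long precursors from which the nuclear enzyme Drosha and its partner Pash-1 cut a hairpin. Dicer trims the hairpin to a short duplex, and 1 arm is loaded into an Argonaute protein that represses messenger RNAs paired to the seed, the bases near the 5′ end of the microRNA. In the worm, a microRNA can have a transcription start of its own or lie in an intron of a protein-coding gene, and related microRNAs are often made from clusters. The mir-35 family acts in the early embryo, where its loss is lethal, whereas lin-4 and let-7 time larval development.

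The bound microRNA genes did not share 1 seed. The mature forms below are those of bound members and of their relatives in the same cluster or family, read from the RefSeq WBcel235 annotation and genome and written 5′ to 3′, with the seed (bases 2 to 8) in capitals. They show that the bound genes of the mir-35 cluster have the seed CACCGGG in common with their neighbours mir-39 and mir-40, which were not bound. The seeds of mir-58.1 (GAGAUCG) and its unbound relative mir-80 (GAGAUCA) differ only at base 8.
mir-35 3′ arm: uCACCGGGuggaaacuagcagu
mir-36 3′ arm: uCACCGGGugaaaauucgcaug
mir-37 3′ arm: uCACCGGGugaacacuugcagu
mir-38 3′ arm: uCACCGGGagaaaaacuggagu
mir-39 3′ arm: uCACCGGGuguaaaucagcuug
mir-40 3′ arm: uCACCGGGuguacaucagcuaa
mir-58.1 3′ arm: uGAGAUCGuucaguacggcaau
mir-80 3′ arm: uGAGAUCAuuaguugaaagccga
mir-72 5′ arm: aGGCAAGAuguuggcauagcuga
mir-87 3′ arm: gUGAGCAAaguuucaggugugc

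The summits themselves lay in unlike sequence. The first window below is centred on the summit at the mir-35 cluster, chrII:11537681-11537881 on the plus strand, with the bases of annotated mature microRNAs in capitals: the end of mir-35, both arms of mir-36 and the 5′ arm of mir-37. The second is centred on the summit upstream of mir-58.1, chrIV:3232971-3233171 on the plus strand, with the reverse complement of GGGCGG in capitals. The third is centred on the higher of both summits at mir-87, chrV:12038453-12038653, printed along the minus strand on which the gene lies, with an alternating T and G run of 52 bases in capitals. All 3 are 201 bases of the RefSeq WBcel235 genome.
mir-35 cluster: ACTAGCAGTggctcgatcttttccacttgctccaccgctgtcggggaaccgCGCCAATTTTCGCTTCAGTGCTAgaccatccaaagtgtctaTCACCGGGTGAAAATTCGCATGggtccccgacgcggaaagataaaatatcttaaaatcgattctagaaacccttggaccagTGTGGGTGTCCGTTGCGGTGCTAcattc
mir-58.1 upstream: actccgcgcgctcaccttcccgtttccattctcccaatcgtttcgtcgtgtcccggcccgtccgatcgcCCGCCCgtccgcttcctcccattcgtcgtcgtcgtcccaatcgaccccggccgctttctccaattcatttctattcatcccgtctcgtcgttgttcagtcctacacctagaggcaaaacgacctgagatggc
mir-87 downstream: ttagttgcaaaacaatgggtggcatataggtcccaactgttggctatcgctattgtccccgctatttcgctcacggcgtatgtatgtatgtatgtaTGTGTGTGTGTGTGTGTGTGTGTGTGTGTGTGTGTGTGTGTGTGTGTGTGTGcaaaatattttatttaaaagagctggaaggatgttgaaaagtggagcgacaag

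Of the 255 microRNA genes, 14 (5.49%, 95% Clopper-Pearson interval 3.03 to 9.04) were bound. The reproducible list held 1258 regions that passed the authors' irreproducible discovery rate (IDR) step, and it was drawn from a pooled list of 30000 regions. These 1258 were exactly the highest of the pooled list by signal, the authors' own value for each region. Being bound therefore follows pooled rank, and a bound region could rank below 1258 in 1 replicate. A further 49 microRNA genes had a summit of the pooled list but none of the IDR list, and 192 had neither. Across all annotated genes, which differ in length, 3.34% were bound. A sliding window of 495 bp, the median microRNA gene length of 95 bp plus 200 bp to either side, held an IDR summit at 0.607% of positions in the genome. A pooled summit, bound or not, lay at 63 microRNA genes (24.7%, interval 19.5 to 30.5), against 13.9% of such windows and 32.4% of all annotated genes, many of which are longer. Genes of a cluster share regions, so the 14 bound genes stood for 11 loci of 218 (5.05%), where genes at most 1000 bp apart were joined. The intervals cover counting error over genes only, and the read depth of the libraries is unknown.

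Among other short RNA genes, the share bound was larger for tRNA and snoRNA genes and for mir-51 to mir-56. It was 66.7% of the 6 genes mir-51 to mir-56 (4 genes), 39.5% of 612 tRNA genes, 18.5% of 346 snoRNA genes and 14% of 129 snRNA genes. It was 4.71% of 7764 other non-coding RNA genes and 0.0781% of 15363 piRNA genes. The interval of the 255 microRNA genes (3.03 to 9.04%) did not overlap the intervals of tRNA genes (35.6 to 43.5%), snoRNA genes (14.5 to 23%) or mir-51 to mir-56 (22.3 to 95.7%), and it overlapped that of snRNA genes (8.48 to 21.2%). The intervals of other non-coding RNA genes (4.25 to 5.21%) and of all annotated genes (3.18 to 3.51%) lay wholly inside it. That of piRNA genes (0.0404 to 0.136%) lay below it. These classes differ in median length (140, 196 and 21 bp, beside 95 bp). The interval of mir-51 to mir-56 counts linked genes as independent: mir-54 and mir-55 lie within 200 bp of 1 IDR summit. That summit is also the one at F09A5.15, a bound gene among the 255. No test was made of these differences, because the groups were chosen with results known.

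**Figure D1:**
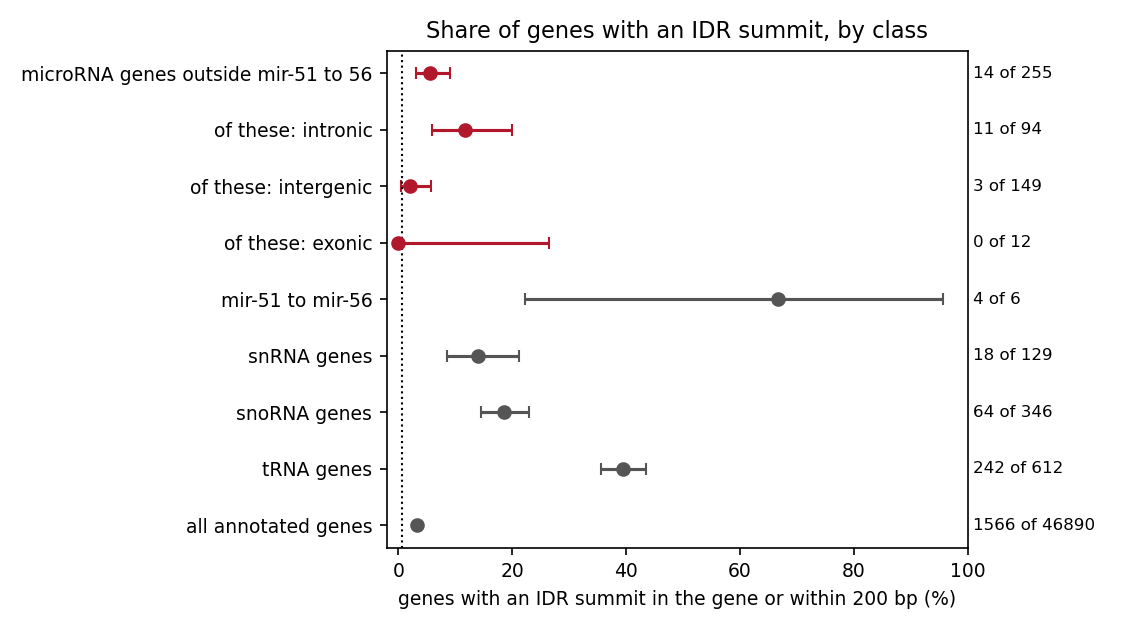
Share of genes with an IDR summit in the gene or within 200 bp (x axis, percent) for the microRNA genes outside mir-51 to mir-56 and their subsets (red) and for other classes (grey), with 95% Clopper-Pearson intervals as bars and counts at the right. The dotted line marks the 0.607% of genome windows of 495 bp that hold an IDR summit, and the intronic microRNA genes lie at 11.7%.

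Most bound microRNA genes lay in introns. Of 94 microRNA genes inside a protein-coding gene but clear of its exons, 11 were bound (11.7%, interval 5.99 to 20), against 3 of 149 intergenic ones (2.01%, interval 0.417 to 5.77) and 0 of 12 that overlapped an exon (interval up to 26.5%). Windows of 495 bp held an IDR summit at 0.528% of positions centred in introns of protein-coding genes and at 0.758% of positions centred outside protein-coding genes. The 11 intronic genes include 4 of 1 cluster. By locus, 8 of 82 intronic loci (9.76%, interval 4.31 to 18.3) and 3 of 126 intergenic loci (2.38%, interval 0.494 to 6.8) were bound, and these intervals overlap. Pooled summits were found at 31 of 94 intronic genes (33%), 27 of 149 intergenic genes (18.1%) and 5 of 12 exonic genes (41.7%). Intronic microRNA genes on the strand of their host were bound in 6 of 67 cases (8.96%), and those on the opposite strand only in 5 of 27 (18.5%), of which 4 were the mir-35 cluster.

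The highest region at any of these genes covered the mir-35 cluster, whose members act redundantly in the embryo. It spanned II 11537559 to 11538002 in an intron of Y62F5A.9, which is on the opposite strand. The region had a signal, the authors' own value for each region of a list, of 419.7 and rank 164 of 30000 in the pooled list. Its summit lay inside mir-36, 68 bp from the gene start, and was within 200 bp of mir-35, mir-37 and mir-38. Both replicates had a summit within 1 bp of it, with a signal of 211.7 (rank 145) in replicate 1 and 206.6 (rank 190) in replicate 2. The cluster goes on with mir-39, mir-40 and mir-41. A second pooled summit 209 bp further on had a signal of 154.5 and rank 3295, was not in the IDR list, and was the highest pooled summit within 200 bp of mir-39 and mir-40. The summit at mir-36 lay 308 bp from mir-39 and 403 bp from mir-40, and mir-41 had no pooled summit within 200 bp.

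At mir-58.1, also named mir-58a and one of the most abundant worm microRNAs, the IDR summit lay upstream. The region spanned IV 3232849 to 3233292 in an intron of phkb-1, a subunit gene of phosphorylase kinase on the same strand, with a signal of 270.3 and rank 399. Its summit was 183 bp before the gene start. The nearest summit had a signal of 134.0 at 43 bp in replicate 1 and 147.1 at 129 bp in replicate 2, with ranks 376 and 382. Replicate 1 had a further summit of rank 789 that lay 163 bp from the pooled summit, on the side of the replicate 2 summit, so the 2 ranks may not belong to 1 site. A second pooled summit, 17 bp into the gene, had a signal of 182.3 and rank 1506 and was not in the IDR list. The other genes of the mir-58 family, relatives of the Drosophila microRNA bantam, included 3 with a pooled summit only: mir-80 (189.1), mir-82 (106.9) and mir-81 (93.4).

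Both summits at mir-87 were in the IDR list. They lay in an intron of kup-1, on the strand of the microRNA. The higher one, in region V 12038331 to 12038774, had a signal of 315.0 and rank 294 and stood 228 bp from the gene start, 135 bp beyond the gene end, in the alternating T and G run. In the replicates the same summit was found within 2 bp, with a signal of 143.6 (rank 324) and 165.3 (rank 292). The second summit had a signal of 218.2 and rank 732 and stood 16 bp inside the gene start. Within 100 bp of the higher summit, 79.5% of words of 31 bases occurred once in the genome, whereas at 9 of the 12 regions all of them did. The share was lower at mir-1829.3 (70.8%) and was 99.4% at mir-8196.2.

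The other bound intronic genes on chromosomes II and X had lower signals. The gene mir-8192 lies in an intron of flcn-1, the folliculin homologue, and its region (II 6943625 to 6944068, signal 229.9, rank 617) had its summit 38 bp before the microRNA gene start. That summit was also 458 bp upstream of the nearest annotated flcn-1 transcript start. The nearest replicate summits had a signal of 125.8 at 156 bp in replicate 1 and 101.9 at 10 bp in replicate 2. The gene mir-8196.2 lies opposite to prx-1, a peroxisome biogenesis gene, with its region at X 14324320 to 14324763 (signal 203.4, rank 944) and its summit 25 bp before the gene start. Its signals in the replicates were 101.5 and 100.5. The gene mir-1829.3 lies in an intron of piki-1, a phosphoinositide 3-kinase gene, with its region at X 15236034 to 15236477 (signal 207.7, rank 882). Its summit stood 106 bp beyond the microRNA gene and 60 bp from the tRNA gene F39B1.t1, so it cannot be assigned to either by position.

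The bound gene F09A5.15, named mir-55b in Ensembl and kept because only mir-51 to mir-56 were left out, runs antisense to mir-55 in an intron of F09A5.3. Its region spanned X 13144865 to 13145308 with a signal of 249.3 and rank 482. The summit lay 168 bp beyond F09A5.15 and inside mir-54. Its signal was 100.7 in replicate 1 and 149.6 in replicate 2, with summits within 5 bp. Without F09A5.15, 13 of the microRNA genes were bound.

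Of the bound genes outside protein-coding genes, mir-72 and mir-270 each fell below rank 1258 in 1 replicate. At mir-72, whose seed is that of vertebrate miR-31, the region at II 2452582 to 2453025 had a signal of 202.5 and rank 961, the lowest signal at any bound microRNA gene, and its summit lay 34 bp before the gene start. The replicates differed there, with a signal of 120.6 (rank 495) in replicate 1 and 82.2 (rank 3770) in replicate 2. At mir-270, the region at IV 3258037 to 3258480 had a signal of 206.6 and rank 899, and its summit lay 196 bp beyond the gene. It had a signal of 90.6 (rank 1461) in replicate 1 and 114.1 (rank 850) in replicate 2. This summit was also at -651 bp from the start of the protein-coding gene T26C12.1, and it was the only one of the 11 loci in a promoter window, taken as 1000 bp upstream to 200 bp downstream of the annotated start of a protein-coding gene. Counted from the starts of single transcripts, the summit at mir-8192 would also lie in such a window, that of an flcn-1 transcript.

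Chromosome I held 2 bound genes, mir-2 and mir-79. The gene mir-2 lies in an intron of ppfr-1, a regulatory subunit gene of a protein phosphatase, on the same strand. Its region (I 9372758 to 9373201) had a signal of 307.2 and rank 311, with the summit 115 bp before the gene start. The replicates had a signal of 158.1 at 95 bp in replicate 1 and 144.6 at 6 bp in replicate 2. A second IDR summit, of rank 973, lay 201 bp further upstream, more than 200 bp from mir-2. The replicate 1 summit lay between these IDR summits. The gene mir-79, a relative of Drosophila miR-79, was intergenic, with its region at I 9332593 to 9333036 (signal 225.3, rank 655) and its summit 131 bp before the gene start. Its nearest replicate summits had a signal of 109.0 at 97 bp in replicate 1 and 118.9 at 130 bp in replicate 2, and a second pooled summit of signal 151.8 lay 76 bp inside the gene start.

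**Figure D2:**
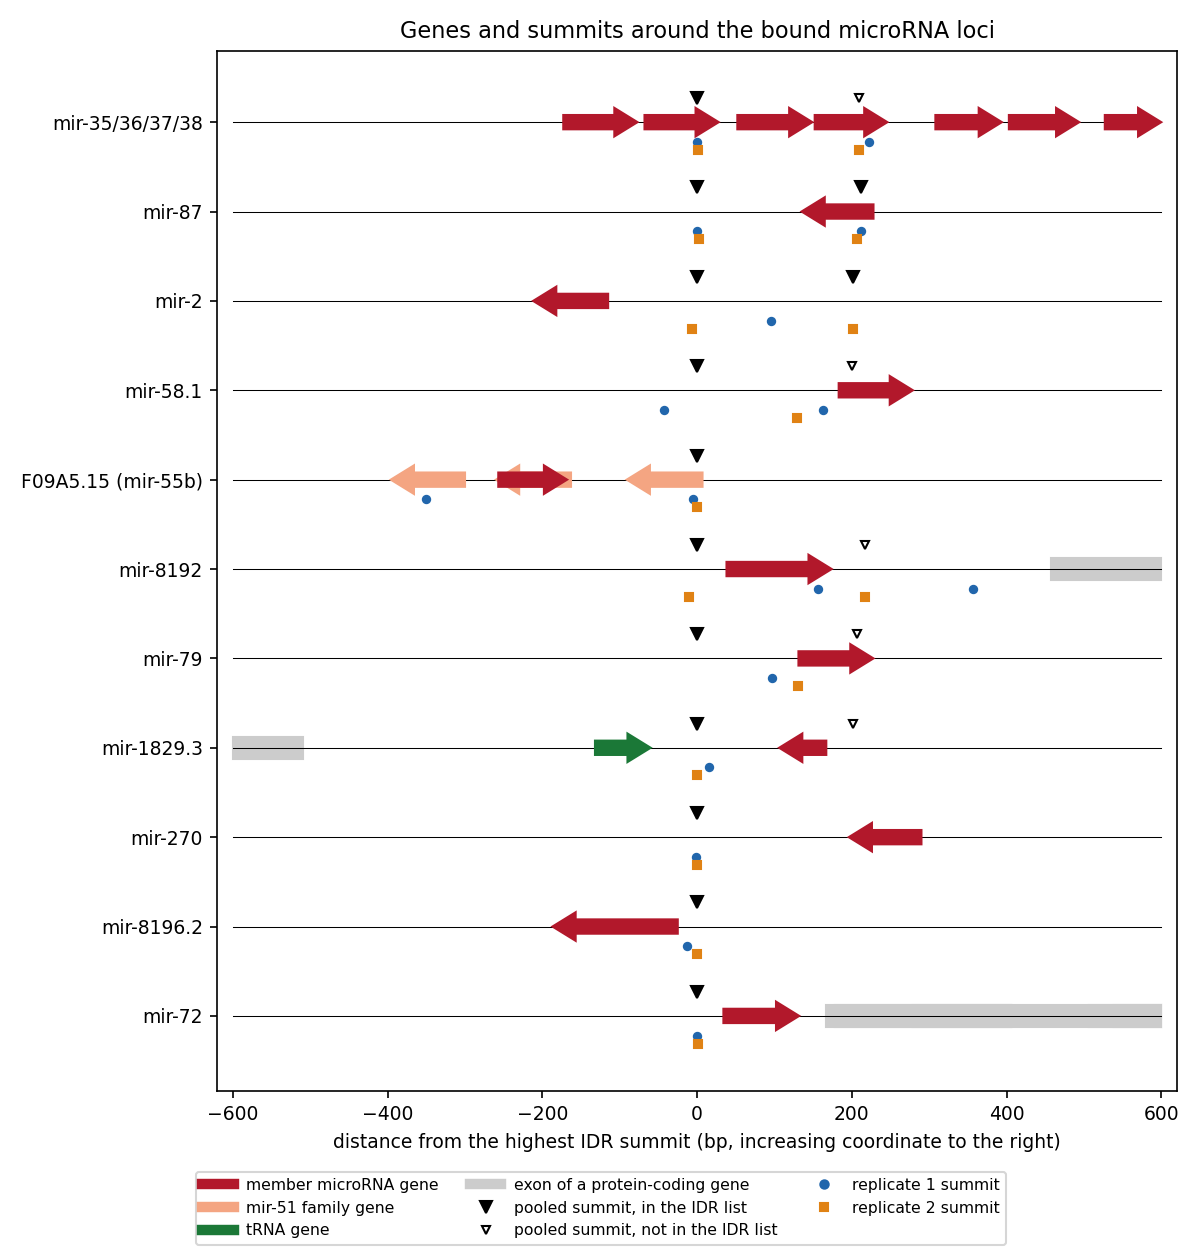
Genes (arrows, pointing along their strand) and summits around the 11 bound loci, with the x axis giving the distance in bp from the highest IDR summit. Filled triangles are pooled summits in the IDR list, open triangles are other pooled summits, and circles and squares are summits of replicates 1 and 2. A second pooled summit 200 to 217 bp away is seen at 7 of the 11 loci.

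The replicates ranked some of these loci alike, such as mir-87 (324 and 292) and mir-79 (693 and 728), and others far apart, such as mir-72 (495 and 3770). The 1258th highest region had a signal of 93.7 in replicate 1 and 104.0 in replicate 2. A region was called shared when each replicate had a summit within 100 bp among its own 1258 highest. This held for 4 of the 12 IDR regions at microRNA genes (33.3%), against 55.9% of all IDR regions, and the microRNA regions are part of that total. The shared regions were those of mir-35 to mir-38, mir-87 (the higher one), mir-2 and F09A5.15, which are 7 of the 14 bound genes. The count depended on this distance: 6 bound genes were shared within 50 bp and 9 within 200 bp. At mir-2, the replicate 1 summit was 95 bp away. Without the distance rule, 6 of the 11 loci had their nearest region among the 1258 highest of both replicates. At the other 5, mir-8192, mir-8196.2 and mir-72 were below that rank in replicate 2, and mir-1829.3 and mir-270 were below it in replicate 1. Among IDR regions of other classes, 83.9% were shared at tRNA genes, 86.8% at snoRNA genes and 83.3% at snRNA genes.

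**Figure D3:**
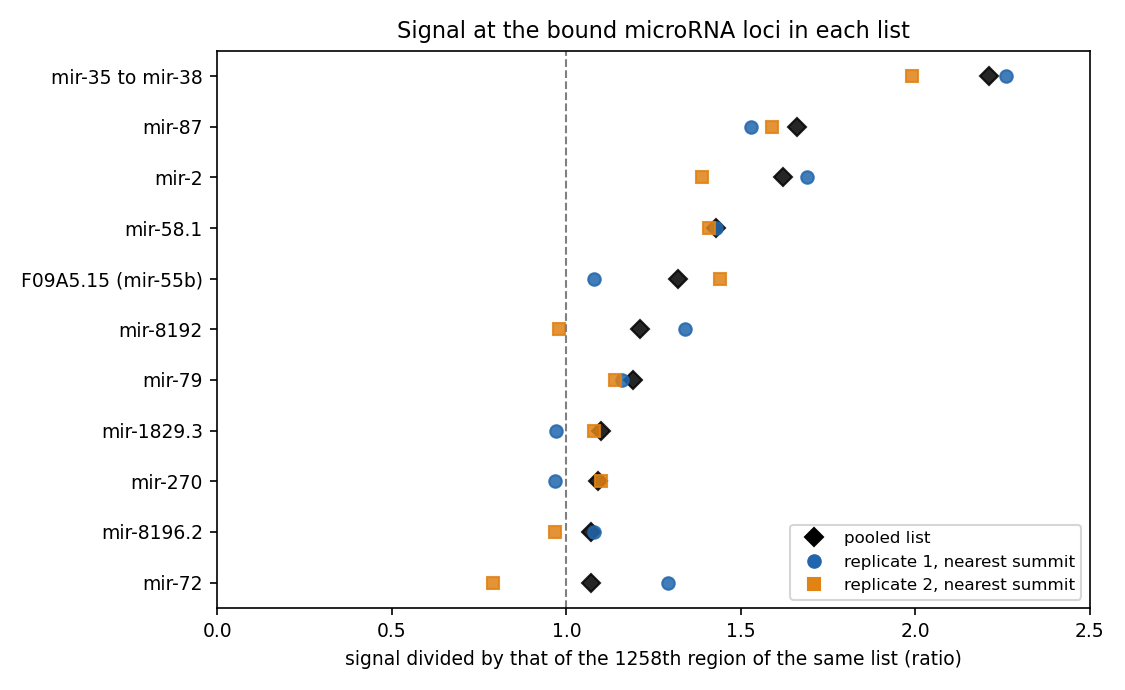
Signal at each bound locus in the pooled list (diamonds) and at the nearest summit of replicate 1 (circles) and replicate 2 (squares), each divided by the signal of the 1258th region of the same list (x axis, ratio, with the dashed line at 1). The mir-35 cluster lies at 2.21, 2.26 and 1.99, whereas mir-72 lies at 1.07, 1.29 and 0.791.

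The signals of the bound microRNA regions were close to the middle of the IDR list. The 12 regions ran between 202.5 and 419.7 with a median of 227.6, beside 189.6 to 1776.7 and a median of 228.0 over all 1258, and 6 of the 12 were among the 629 highest. The median was 829.7 at mir-51 to mir-56, 337.1 at tRNA genes, 496.4 at snoRNA genes and 295.7 at snRNA genes. Intronic microRNA regions had a median of 249.3 (9 regions, 203.4 to 419.7) and intergenic ones 206.6 (3 regions, 202.5 to 225.3). Of the 61 pooled regions at microRNA genes, 12 were in the IDR list (19.7%, interval 10.6 to 31.8), beside 4.19% of all pooled regions. Since the IDR regions are the highest of the pooled list, these shares restate pooled rank.

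Other short RNA genes were near the summit at some of the loci. At 8 bound genes no other tRNA, snoRNA, snRNA, rRNA, piRNA or microRNA gene lay within 200 bp of the summit, and these regions had a median signal of 227.6 (202.5 to 315.0). At the other 6 genes (3 regions) such a gene was near, with a median of 249.3 (207.7 to 419.7). Those neighbours were the mir-35 cluster's own members, mir-54 and mir-55 at F09A5.15, and a tRNA gene at mir-1829.3. In addition, 6 of the 11 loci had an annotated non-coding RNA gene of the broad class within 200 bp. No share of all IDR regions with such neighbours is set beside these counts, so they are not read as a trait of microRNA genes. The part of these neighbours in the signal was not tested. With summits at tRNA, snoRNA, snRNA and mir-51 to mir-56 genes set aside, 12 microRNA genes were bound.

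Summits had no single position relative to the microRNA gene. Along the gene's strand, the median position of the 12 IDR summits was -4.5 bp relative to the gene start (-183 to 290 bp), with 6 upstream of the gene, 2 inside it and 4 beyond it. Only summits in the gene or within 200 bp of it were counted, so that rule bounds the positions given here. The 49 pooled regions outside the IDR list had a median of 0 bp, with 24 upstream, 13 inside and 12 beyond. Apart from genes with long annotations, such as let-7 (1732 bp), mir-8199 (778 bp) and mir-8209 (262 bp), the annotated gene start is near that of the hairpin. Primary transcript starts were not used here. A second pooled summit lay within 250 bp of the highest one at 7 of the 11 loci. Over all IDR regions, 33.3% had one. The units differ, since each locus is counted by its highest region only. At mir-1829.3 the second summit was near the end of the pooled list (signal 86.0, rank 26788). At the others of these loci its rank ran between 732 and 3590.

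Fixed words were searched on both strands within 50 bp of the 12 IDR summits. The homeodomain core TAATTA was in 0 of the 12 windows, 2.31% of all IDR windows and 4.03% of all pooled windows. The shorter TAAT, which TAATTA contains, was in 3 of the 12 (25%), at F09A5.15, mir-8196.2 and the second mir-87 summit, beside 41.4% of IDR and 57.1% of pooled windows. The word GGGCGG was in 3 of the 12 (25%), at mir-58.1, mir-8192 and mir-79, beside 7.47% of IDR and 2.88% of pooled windows. GAGAGA and GGTTCGA, the last one part of the promoter box inside tRNA genes, were each in 0 of the 12. GAGAGA was in 13.6% of IDR and 7.13% of pooled windows, and GGTTCGA in 8.51% of IDR and 1.23% of pooled windows. TTTTTT was in 1 of the 12 (8.33%), at F09A5.15, beside 25.9% of IDR and 38.2% of pooled windows. The windows had a median of 50% G and C (36.6 to 66.3), beside 47.5% for all IDR and 38.6% for all pooled windows. These matches describe letters in the windows only.

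The microRNA genes just outside the IDR list were led by mir-80. Its region had a signal of 189.1 and rank 1278 in the pooled list, beside 189.6 for the lowest IDR region, and its signal was 74.7 (rank 3694) in replicate 1 and 113.7 (rank 859) in replicate 2. The next were mir-8204 (182.8), mir-2211 (176.5), mir-5549 (173.4), mir-8196.1 (169.6) and mir-4929 (169.1). Some of them held unlike ranks in the replicates: mir-2211 had rank 4343 in replicate 1 and 1404 in replicate 2, whereas mir-4929 had rank 1280 in replicate 1 and 5988 in replicate 2. Others were close, such as mir-8204 with ranks 1862 and 1773 and mir-5549 with ranks 2091 and 1636. They were followed by mir-39 and mir-40 with their common summit (154.5), mir-799 (147.5) and mir-8201 (143.8). By distance, the nearest genes outside 200 bp of an IDR summit were mir-5595 at 265 bp (signal 204.1) and mir-62 at 275 bp (296.8), both with the summit upstream of the gene. They were followed by mir-39 at 308 bp, mir-1824 at 378 bp (262.4) and mir-40 at 403 bp. A window of 1000 bp upstream to 200 bp downstream of the hairpin start, chosen after seeing the data, took in 7 further genes: mir-39, mir-40 and mir-41 through the mir-35 region, mir-354 (signal 333.1, summit at -859 bp), mir-62, mir-5595 and mir-244 (199.8, summit at -984 bp).

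**Figure D4:**
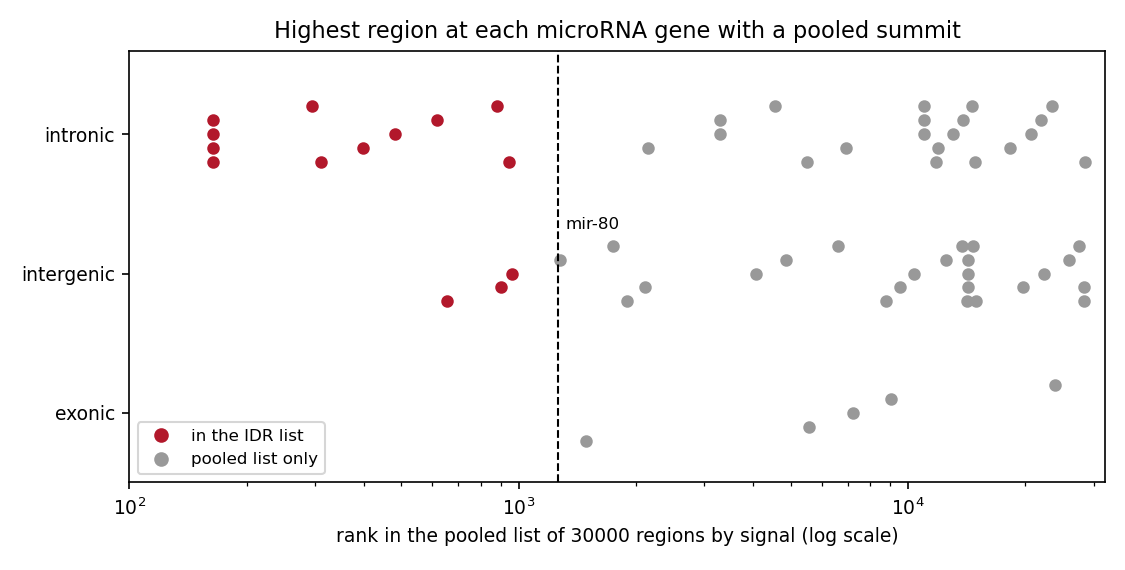
Rank in the pooled list of 30000 regions (x axis, log scale) of the highest region at each of the 63 microRNA genes with a pooled summit, by intronic, intergenic and exonic position. The 14 bound genes (red) lie left of the dashed line at rank 1258, and mir-80 at rank 1278 is just right of it.

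Of the best-known microRNA genes, lin-4, let-7, mir-1 and lsy-6 were not bound. The nearest IDR summit to lin-4, the larval timing microRNA, was 57294 bp away, and a pooled summit of signal 133.2 lay at 351 bp. For let-7, a pooled summit of signal 122.9 (rank 9017) lay 67 bp beyond the 1732 bp gene, annotated at far more than hairpin length, and the nearest IDR summit was at 1695 bp. For mir-1, a muscle microRNA, the distances were 2713 bp to an IDR summit and 401 bp to a pooled one (82.1). For lsy-6, which sets left and right identity of a taste neuron pair, they were 34217 bp and 1047 bp (87.8). MicroRNA levels were not measured here.

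By shared seed, the bound genes were scattered except for the mir-35 cluster. Of 8 genes with the seed CACCGGG, 4 were bound, 3 had a pooled summit only (mir-39, mir-40 and mir-42) and mir-41 had none, and the 4 share 1 region. With the seed GGCAAGA, mir-72 was bound of 6 genes. With AUCACAG, mir-2 was bound of 4 and mir-43 had a pooled summit only. With AACCACU, mir-1829.3 was bound of 3, with UGAGCAA, mir-87 of 3, and with UAAAGCU, mir-79 of 2. In the let-7 family, 0 of 7 genes were bound and let-7 itself had a pooled summit. None was bound of 2 in the lin-4 family, 4 in the mir-44 family, 5 in the mir-64 family or 4 genes listed as mirtrons. In these groups, mir-45, mir-64, mir-65 and mir-66 had a pooled summit only. The listed mirtron mir-1018 was intergenic in the annotation used. By chromosome, 6 of 49 microRNA genes were bound on II, of which 4 share the mir-35 region, 2 of 33 on I, 2 of 47 on IV, 1 of 28 on V, 3 of 71 on X and 0 of 27 on III, where 8 had a pooled summit. The 95% intervals of these 6 shares all overlap.

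A list of genes that make or work with microRNAs was searched in their promoter windows. It also held the larval timing genes lin-14, hbl-1, lin-41, lin-46 and daf-12, and all of it is called machinery below. Of its 25 genes, 3 had an IDR summit there, beside 3.02% of all 19973 protein-coding genes, 14 had a pooled summit only and 8 had none. These are small counts given without an interval, and no difference from all protein-coding genes was tested. The genes lin-14, hbl-1, lin-41 and lin-46 were among those with a pooled summit only, and daf-12 had none. A pooled summit of either kind was thus at 17 of the 25, beside 35.7% of all protein-coding genes. The 3 were ain-1, which encodes a GW182 homologue of the silencing complex (signal 286.7, summit at -977 bp), vig-1, a silencing complex component (signal 274.6, summit at -374 bp, with a piRNA gene near), and ntl-2.1, a subunit gene of the CCR4-NOT deadenylase (signal 252.9, summit at -429 bp). The genes of the processing enzymes Dicer (dcr-1, 132.9) and Drosha (drsh-1, 88.0) had a pooled summit only. The Pash-1 gene and the Argonaute genes alg-1 and alg-2 had none.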

How the data were processed

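Embryo chromatin sheared to 200 to 800 bp, per the labels, was analysed as lists of regions on assembly ce11. The deposited signal of each region is the authors' own value. It was used only to describe and rank regions within a list, since its scale differs between lists. Per the deposited file listing, each replicate gave a relaxed list called with a control alignment, the pooled reads gave a further such list, and the IDR regions came from these 3. The summit came from the other column used, the authors' deposited summit offset. Aligner, caller, IDR threshold and read totals were not given in the sources used here, and depth is therefore unknown. The p-value column held no p-value and the q-value column was below 0 for most regions, so neither was used. The control library was not analysed here.

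Coordinates count from 1. Genes came from Ensembl release 115 on WBcel235, with RefSeq symbols by WormBase identifier (255 of 255) and mature forms for 254 of 255. A gene was bound if an IDR summit lay in it or within 200 bp. Shares carry exact Clopper-Pearson 95% intervals. There was 1 group, so no test compared samples, and neighbouring genes are not independent. Regions and genes were compared with Python 3.11.15, NumPy 2.4.6 and SciPy 1.17.1, and plots were drawn with Matplotlib 3.10.9. The overlap code was tested on made-up positions. Every bound gene, the 10 highest members with a pooled summit only, the 5 nearest outside 200 bp, the best-known members and the bound machinery genes were to be named. Other genes named, such as relatives of these and unbound machinery genes, were chosen after their values were seen. Of 26 listed machinery genes, 25 matched. The members and lists were chosen with earlier results of these data known. Alternatives changed the margin, summit rule, signal threshold, annotation, replicate and neighbour distances, and 3 were added after seeing the data.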

Additional observations from a re-analysis of the deposited data

How the results depend on the processing

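The count of bound microRNA genes depended on the margin around the gene. Of the 14 bound genes (11 intronic, 3 intergenic, 8 with no other short RNA gene near, 7 shared by both replicates) and the 63 with a pooled summit, a margin of 0 bp left 2 bound (2 intronic, 0 intergenic, 1 with no other gene near, 1 shared) and 15 with a pooled summit. A margin of 100 bp left 7 (6 intronic, 1 intergenic, 4 with no other gene near, 3 shared). A margin of 500 bp gave 19 bound, 11 shared and 106 with a pooled summit, and overlap of the region in place of its summit gave 19, 11 and 98. Among the 629 highest IDR regions, 9 genes were bound (0 intergenic, 4 with no other gene near). Shares over all genes at these settings are not given. A wider margin can only add genes of any class, so these changes are not particular to microRNA genes.

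An IDR list needs both replicates, so leaving 1 out meant using the highest regions of the other replicate's own list. Without replicate 1 or without replicate 2, 12 genes had such a summit in each case, 11 of them among the 14. These counts are not of reproducible regions. The RefSeq annotation gave 14 of 254 genes. Chosen after seeing the data, a window of 1000 bp upstream to 200 bp downstream gave 19 genes, 12 of them among the 14. Machinery promoters with a summit numbered 2 to 4 under their alternatives. The count of 4 came from the list of replicate 2 alone and is not of IDR summits. The count of 2 came from a window of 500 bp upstream to 100 bp downstream, which left out ain-1 with its summit at -977 bp. No paired analysis was possible because there was 1 group. Unknown depth and the lack of a list of untagged animals limit every count.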
